A study of Mus musculus with 3 samples.

Results

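The cells described here carried transcripts of both Mixl1 and T, the pair that marks the late primitive streak, in mouse embryos on embryonic day 8. They were selected on single-cell UMI counts, where a UMI is a molecular tag that lets each captured transcript be counted once. A barcode, which stands for 1 droplet and usually 1 cell, was taken when it had at least 1 UMI of Mixl1 and at least 1 of T, no UMI of Noto, Foxj1, Foxa2 or Tbx4, and at most 1 of Kdr. The genes left out mark the left-right organizer and notochord (Noto, Foxj1, Foxa2), the endoderm (Foxa2 again), the allantois (Tbx4) and the endothelium (Kdr). The rule found 898 of the 22168 barcodes that passed quality control, with 385, 214 and 299 in replicates 1, 2 and 3. They are called Mixl1+T+ cells below, and members in the plots.

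The series holds 3 wild-type embryos of the strain C57BL/6 x 129 SvEv, each as 1 library, and no other genotype or treatment. They were picked at 0 to 1 somites, while another label allows up to 2, and were dissociated whole with TrypLE after their extraembryonic tissue was taken off. The libraries held 207961733, 149341900 and 167503888 UMIs in replicates 1, 2 and 3. After quality control the median barcode held 26705 UMIs in replicate 1, 14461 in replicate 2 and 16242 in replicate 3.

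The primitive streak is the posterior region of the gastrulating embryo through which epiblast cells leave their epithelium and become mesoderm or endoderm. T (Brachyury) is a T-box transcription factor needed for posterior mesoderm, Mixl1 is a paired-type homeodomain factor of the streak, and Mesp1 marks the earliest mesoderm that leaves it. Wnt and FGF ligands of the streak sustain T, and Snai1 represses epithelial genes as cells ingress.

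Of these 3 genes, promoter windows were at hand for T and Mesp1, from RefSeq on GRCm38.p6, each from 250 bases before the gene start to 50 bases after it. They are shown because T chose the cells and Mesp1, which the rule did not use, was higher in them in every comparison. Capitals mark the letters AGGTGTGA (a T-box site), CTTTGAA or CTTTGAT (TCF/LEF sites), which were searched on both strands together with a homeodomain dimer site (TAAT and ATTA with any 3 bases between them).
Mesp1, chr7:79793541-79793840, minus strand: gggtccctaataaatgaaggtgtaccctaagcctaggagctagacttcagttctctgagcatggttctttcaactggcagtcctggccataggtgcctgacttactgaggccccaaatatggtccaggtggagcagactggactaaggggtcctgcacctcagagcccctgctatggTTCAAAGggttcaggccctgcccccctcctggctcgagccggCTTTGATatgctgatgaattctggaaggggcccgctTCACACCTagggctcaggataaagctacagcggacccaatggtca
T, chr17:8434173-8434472, plus strand: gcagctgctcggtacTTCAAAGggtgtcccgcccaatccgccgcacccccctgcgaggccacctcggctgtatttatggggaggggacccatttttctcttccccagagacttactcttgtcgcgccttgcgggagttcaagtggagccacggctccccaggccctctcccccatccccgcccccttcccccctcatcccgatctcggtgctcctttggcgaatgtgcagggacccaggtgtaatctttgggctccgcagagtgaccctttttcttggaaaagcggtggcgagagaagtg
The Mesp1 window held the T-box letters as TCACACCT, from 6 to 13 bases after the start. Positions count from the RefSeq start, which for Mesp1 lies inside the gene as GENCODE gives it. The window held TCF/LEF letters at 2 places, from 73 to 67 and from 31 to 25 bases before the start. The T window held TCF/LEF letters from 235 to 229 bases before the start and neither of the other motifs. Of all 32851 promoter windows, 1.28% held the T-box letters, 8.65% TCF/LEF letters and 0.487% the homeodomain dimer letters. A match of letters describes a window and is not a bound site.

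Mixl1 (ENSMUSG00000026497, chromosome 1 from 180693043 to 180697034 of GRCm38) and T (ENSMUSG00000062327, chromosome 17 from 8434423 to 8442496) chose the cells, so their levels are a description without a test. Mixl1 stood at 52.0, 77.8 and 57.0 CPM (UMIs of the gene per 1000000 UMIs summed) in the Mixl1+T+ cells of replicates 1, 2 and 3, and at 1.90, 1.79 and 1.94 CPM in all other barcodes. T stood at 195, 193 and 160.2 CPM against 48.3, 37.6 and 48.2 CPM. Most cells lay at the threshold for Mixl1. A single Mixl1 UMI was found in 546 of them (60.8%), 2 UMIs in 179 and 3 or more in 173, up to 14. For T, 128 cells had 1 UMI, 130 had 2 and 640 had 3 or more, up to 32.

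Just outside the rule lay 377 barcodes with Mixl1 and no T. Of the 1211 barcodes with both genes, 37 were left out for Noto, 55 for Foxj1, 140 for Foxa2, 97 for Tbx4 and 102 for Kdr, some of them for more than 1 gene. Kdr was at its limit of 1 UMI in 65 of the cells kept, and 29 barcodes with both genes had 2.

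Mixl1+T+ cells made up 6.28% of the barcodes of replicate 1 (exact 95% binomial interval 5.69 to 6.92), 2.64% of replicate 2 (2.30 to 3.01) and 3.77% of replicate 3 (3.36 to 4.22). The mean was 4.23% ± 1.86 (SD, n = 3 embryos), and the intervals cover counting error only. Replicate 1, which had the deepest barcodes, had the highest share. With every barcode thinned at random to 5000 UMIs, and barcodes below that number left out, the rule found 1.48%, 0.801% and 0.852%. Replicate 1 was again the highest, while the intervals of replicates 2 and 3 now overlapped.

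The median Mixl1+T+ cell held 32466, 15883.5 and 25565 UMIs in replicates 1, 2 and 3, and the median of all other barcodes was 26433.5, 14444.5 and 16029.5 UMIs. Mixl1+T+ cells were the deeper class in each embryo, with the smallest gap in replicate 2. Free RNA gives UMIs of a gene in droplets whose cell does not express it, so both selecting genes were also counted where they should be absent. Of 654 erythroid barcodes, called by Hbb-bh1 and Cited4 (median 16418 UMIs, none of them from replicate 1), 0.917% had Mixl1 and 4.43% had T. Extraembryonic endoderm barcodes, called by Ttr and Afp, were present although extraembryonic tissue had been taken off, and of these 1300 (median 22746 UMIs) 3.77% had Mixl1 and 8.77% had T. The share of endoderm barcodes with Mixl1 was 6.53% in replicate 1, 3.54% in replicate 2 and 2.60% in replicate 3, so it was highest in the replicate with the highest share of Mixl1+T+ cells. The rule took 3 of the erythroid and 5 of the endoderm barcodes. A Mixl1 UMI was found in 3.33% ± 0.821 of all barcodes outside the rule. Of the 690 barcodes with Mixl1 outside the rule, 313 also had T. How many of these UMIs were free RNA was not tested.

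Replicates 1 and 2 shared 22 barcode sequences, replicates 1 and 3 shared 18, and replicates 2 and 3 shared 19. Scrublet, which scores likeness to simulated doublets, called 1 barcode in each library at its own threshold, so that call was not used. The top 6% of scores in each library held 8.13% of the Mixl1+T+ cells and 5.91% of all other barcodes.

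Mesp1, the third gene named for these cells, was a check of their label. Mesp1 (ENSMUSG00000030544, chromosome 7 from 79792241 to 79793788), a basic helix-loop-helix factor of nascent mesoderm, stood at 69.1, 73.2 and 75.9 CPM in Mixl1+T+ cells and at 19.3, 16.2 and 21.0 CPM in all other barcodes. The Mixl1+T+ values lay close together and far above the others (log2 fold change 1.98, standard error 0.11, adjusted p = 0.000107 by edgeR's quasi-likelihood test with Benjamini-Hochberg adjustment, n = 3 embryos). At 5000 UMIs each, 28.4% ± 2.72 of Mixl1+T+ cells and 6.62% ± 0.977 of all other barcodes had a Mesp1 UMI. Without thinning these shares were 55.7% ± 4.97 and 15.7% ± 3.82, beside 0.917% of the erythroid and 3.54% of the extraembryonic endoderm barcodes.

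Against all other barcodes, the Mixl1+T+ cells had higher levels of several streak factors, posterior Wnt and FGF ligands and presomitic genes. Of 15765 genes tested outside the rule, 421 were higher in Mixl1+T+ cells (2.67%) and 842 lower (5.34%) at an adjusted p under 0.05. Since the sums compared come from the same embryos, the test was also run with the embryo as a block, where 1827 genes were higher (11.6%) and 2451 lower (15.5%). The 12 largest increases, among genes with at least 10 CPM in the higher class, were those of Fgf4, Wnt3a, Fgf17, Sct, Evx1os, Hoxaas3, Hes7, Gal, Evx1, Mesp1, Cdx4 and Tbx6. Their log2 fold changes ran from 2.76 to 1.94, and the values of the classes overlapped for none of them.

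Fgf4, an FGF ligand of the streak, had 23.7, 23.7 and 15.1 CPM in Mixl1+T+ cells against 3.81, 2.70 and 2.88 CPM (log2 fold change 2.76, standard error 0.20, adjusted p = 0.00031). Wnt3a, a ligand that sustains posterior progenitors, had 32.1, 25.6 and 19.1 CPM against 5.36, 3.58 and 3.72 CPM (2.65, standard error 0.21, adjusted p = 0.000514). Replicate 3 was the lowest of the Mixl1+T+ values for both ligands and still far above every sum of other barcodes. Fgf17, another posterior ligand, had 21.3, 39.6 and 23.1 CPM against 4.30, 5.80 and 4.56 CPM (2.51, standard error 0.25, adjusted p = 0.00111). Sct, which encodes the hormone secretin, had 52.1, 80.7 and 48.7 CPM against 9.47, 11.4 and 13.1 CPM (2.43, standard error 0.21, adjusted p = 0.000621). Replicate 2 was the highest of the Mixl1+T+ values for both.

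Hes7, the oscillating repressor of the segmentation clock, had 94.99, 83.8 and 64.8 CPM against 22.7, 19.0 and 17.8 CPM (2.07, standard error 0.14, adjusted p = 0.000243). Tbx6, a T-box factor that commits cells to paraxial mesoderm, had 62.6, 54.6 and 37.8 CPM against 17.3, 11.4 and 12.8 CPM (1.94, standard error 0.20, adjusted p = 0.00129). Among the Mixl1+T+ values, replicate 1 was highest and replicate 3 lowest for both genes. Evx1, a homeodomain factor of the posterior streak, had 42.5, 47.3 and 30.2 CPM against 10.45, 9.81 and 9.82 CPM (2.02, standard error 0.15, adjusted p = 0.000345). Cdx4, a caudal homeodomain factor, had 94.8, 212 and 99.97 CPM against 30.4, 44.7 and 30.1 CPM (1.97, standard error 0.32, adjusted p = 0.00849), with replicate 2 far above the others in both classes. The neuropeptide gene Gal had 43.5, 15.9 and 44.9 CPM against 9.24, 4.81 and 12.7 CPM (2.04, standard error 0.41, adjusted p = 0.0212), with replicate 2 the lowest. Evx1os (2.37, standard error 0.23) and Hoxaas3 (2.37, standard error 0.34) are annotated antisense to Evx1 and to Hoxa genes. Whether counting used strand is not given in the sources used here, so how far their reads were kept apart from those of their partners was not checked. Without replicate 3 the calls of Hoxaas3 (adjusted p = 0.0660), Cdx4 (0.107) and Gal (0.136) were lost, and without replicate 1 that of Gal (0.109).

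The 6 largest decreases were those of Gpx2 (-4.17), Hnf4a (-4.10), Tal1 (-3.79), Slc7a8 (-3.44), Dpp4 (-3.43) and Lgals2 (-3.36 on the log2 scale). Hnf4a, a factor of visceral endoderm, had 0.199, 1.55 and 0.816 CPM in Mixl1+T+ cells against 5.27, 16.7 and 11.4 CPM. Tal1, a factor of blood and endothelial progenitors, had 0.199, 3.54 and 1.51 CPM against 10.9, 23.0 and 19.0 CPM. In both, replicate 1 was the lowest of each class, and the classes overlapped for none of the 6 genes. Gpx2 passed with any embryo left out. The calls of the other 5 were lost without replicate 3 (adjusted p = 0.144, 0.170, 0.0979, 0.134 and 0.269 in the order above), and those of Hnf4a (0.0519) and Lgals2 (0.0947) also without replicate 2. The rule keeps endoderm and endothelial cells out of the Mixl1+T+ class only, so nothing is read from these decreases.

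By list, 14 of 17 Wnt pathway genes were higher and none lower, with a median log2 fold change of 1.00 beside 0.00 over all genes tested. Of 18 FGF pathway genes, 10 were higher and 1, the receptor gene Fgfr2, was lower (median 0.84). Of 12 Notch and presomitic genes, 6 were higher and none lower (median 1.37). Of 19 Hox genes, 12 were higher and 1 lower (median 1.17), and of 12 caudal and axial progenitor genes 7 were higher and 1 lower (median 0.87).

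Of 10 streak and nascent mesoderm factors, Snai1, Evx1, Mesp1, Tbx6 and Msgn1 were higher and none lower (median 0.71). The call of Snai1 was lost without replicate 2 (adjusted p = 0.131) and without replicate 3 (0.0539), where its log2 fold changes were 0.91 and 1.11. Eomes, a T-box factor of the early streak, stood at 1.196, 0.663 and 1.51 CPM, below the 2.25, 2.28 and 3.03 CPM of all other barcodes (log2 fold change -1.05, standard error 0.29, adjusted p = 0.0642, with the block 0.00243). Nodal, a ligand that the left-right organizer also expresses, had 3, 1 and 2 UMIs in the Mixl1+T+ cells of replicates 1, 2 and 3. The rule keeps organizer cells out, so nothing is read from its lower level (adjusted p = 0.0192), and under equal limits on both classes it was too scarce to be tested. Gsc, a factor of the anterior streak, had 1.86, 1.55 and 2.45 CPM against 3.07, 3.25 and 2.45 CPM (-0.52, standard error 0.24, adjusted p = 0.234). Lhx1 (0.39, standard error 0.13, adjusted p = 0.105, with the block 0.00114), Mesp2 (0.16, standard error 0.57, adjusted p = 0.920) and Tbx3 (0.00, standard error 0.17, adjusted p = 0.999) did not pass without the block.

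Markers of several other cell types were lower. Of 8 extraembryonic endoderm genes 6 were lower (median -2.90), of 6 definitive endoderm genes 4 (median -2.45), of 7 endothelial genes 6 (median -3.13), of 10 organizer and notochord genes 9 (median -1.39) and of 10 epithelial genes 7 (median -1.55). The rule keeps organizer, notochord, endoderm and endothelial cells out, some of them epithelial, so nothing is read from those lists. No marker of these lists was at 0 in Mixl1+T+ cells. Of the 7 erythroid genes none passed (median -2.72), and all 7 were lower with the block. Their summed level was 1.13, 213 and 29.0 CPM in Mixl1+T+ cells, mostly Hbb-bh1, and 1.98, 1224 and 177 CPM in all other barcodes. Summed extraembryonic endoderm markers stood at 163, 644 and 417 CPM, mostly Apoe, and at 1259.8, 3606 and 2424 CPM. Both sums were highest in replicate 2 and lowest in replicate 1, in either class, and their part in other results was not tested.

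Of 17 BMP pathway genes 1 was higher and 4 were lower (median -0.28). Of 12 lateral and posterior mesoderm genes none was higher and 5 were lower (median -0.42), of 12 mesenchymal genes 2 were higher and 2 lower (median 0.05), and of 9 tested Nodal pathway genes 2 were lower (median -0.16). Of 18 cell cycle genes 2 were higher and 1 lower (median 0.12), and of 10 dissociation stress genes 3 were lower (median -0.51). Of neuroectoderm genes 2 of 8 were lower (median -0.63) and of surface ectoderm genes 1 of 5 (median -0.24). No cardiac (median -0.89), paraxial mesoderm (median -0.18) or germ cell gene (median 0.36) passed without the block.

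With the block, more genes of most lists passed, and in both directions, beside 11.6% of all genes tested that were higher and 15.5% that were lower. Counts such as 3 of 18 FGF pathway genes lower, 3 of 17 BMP pathway genes higher, 2 of 12 lateral and posterior mesoderm genes higher and 2 of 12 caudal genes lower lie near these shares, and 1 of 18 cell cycle genes lower lies below them. Of Wnt pathway genes 15 were then higher and 1, Lgr5, was lower. Of FGF pathway genes 13 were higher and 3 lower, and of Notch and presomitic genes 10 were higher and 1, Hes1, was lower. Of lateral and posterior mesoderm genes Foxf1 and Hand1 were higher and 6 lower. Of BMP pathway genes 3 were higher and 8 lower, and of mesenchymal genes 5 were higher and 5 lower. Of the streak factors Lhx1 joined the higher genes and Eomes was lower. Of Hox genes 14 were higher and 1 lower, and of caudal and axial progenitor genes 8 were higher and 2 lower, Sox2 among the latter. Of cell cycle genes 7 were higher and 1 lower, and of stress genes 6 were lower. Of the marker lists, 5 of 6 cardiac genes and 6 of 8 neuroectoderm genes were lower. Of paraxial mesoderm genes 2 were higher and 3 lower.

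A closer comparator were the 5365 barcodes with T and without Mixl1. Several streak factors and Wnt genes were higher in Mixl1+T+ cells here too. Of 13956 genes tested outside the rule, 136 were higher in Mixl1+T+ cells (0.974%) and 432 lower (3.1%), and with the embryo as a block 1466 (10.5%) and 1563 (11.2%). Of the streak factors 5 of 10 were higher, of Wnt pathway genes 9 of 17 and of FGF pathway genes 6 of 18 (medians 0.68, 0.60 and 0.34 beside 0.01 over all genes tested). Of these lists 1 gene, the Wnt receptor gene Lgr5, was lower. Of lateral and posterior mesoderm genes 2, Foxf1 and Hand1, were higher. These barcodes were under no limit on Noto, Foxj1, Foxa2, Tbx4 or Kdr, and all 10 organizer and notochord genes were lower in Mixl1+T+ cells (median -2.51).

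The same limits were therefore set on the comparator, which left 3465 T+Mixl1- barcodes, with 1158, 1046 and 1261 in replicates 1, 2 and 3 and medians of 29260, 16570 and 20786 UMIs. The rule set them apart by Mixl1 alone, but their level of T also lay lower, at 101, 124 and 112 CPM against 195, 193 and 160.2 CPM in Mixl1+T+ cells, so T was not matched. At 5000 UMIs each, 35.4% ± 6.95 of the Mixl1+T+ cells kept a Mixl1 UMI, so a cell of the same kind can be among the T+Mixl1- barcodes with its Mixl1 transcripts missed. All values below are for this comparison unless another is named, with those of the Mixl1+T+ cells first.

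Under the same limits few genes passed without the block, Mesp1, Fgf3 and Dkk1 among them, and many more passed with it. Of 13157 genes tested, 11 were higher in Mixl1+T+ cells (0.0836%) and 2 lower (0.0152%), while 697 had an unadjusted p under 0.05. With the embryo as a block, 448 were higher (3.41%) and 397 lower (3.02%). The 11 genes were Hoxa11, Lgals3, Sct, Itgb8, Arl4d, Mesp1, Pde4a, Fgf3, Dkk1, Smc6 and Fam212a, and the 2 lower ones were Gpx2 and Trh. Their classes did not overlap, and all 13 also passed with the embryo as a block. Leaving out an embryo ended every one of these calls except that of Mesp1 without replicate 1 (adjusted p = 0.0292), where Hoxd9 also passed (0.0348). Mesp1 did not pass without replicate 2 (0.399) or 3 (0.233). All 13 genes kept their sign with any embryo left out. Without replicates 1, 2 and 3 the log2 fold change of Arl4d was 1.21, 1.25 and 1.43 (1.30 with all embryos). That of Gpx2 was -2.52, -2.42 and -3.20 (-2.70 with all). Hoxa11 passed the filter on low counts only through the Mixl1+T+ sums, so nothing is read from its call.

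**Figure D1:**
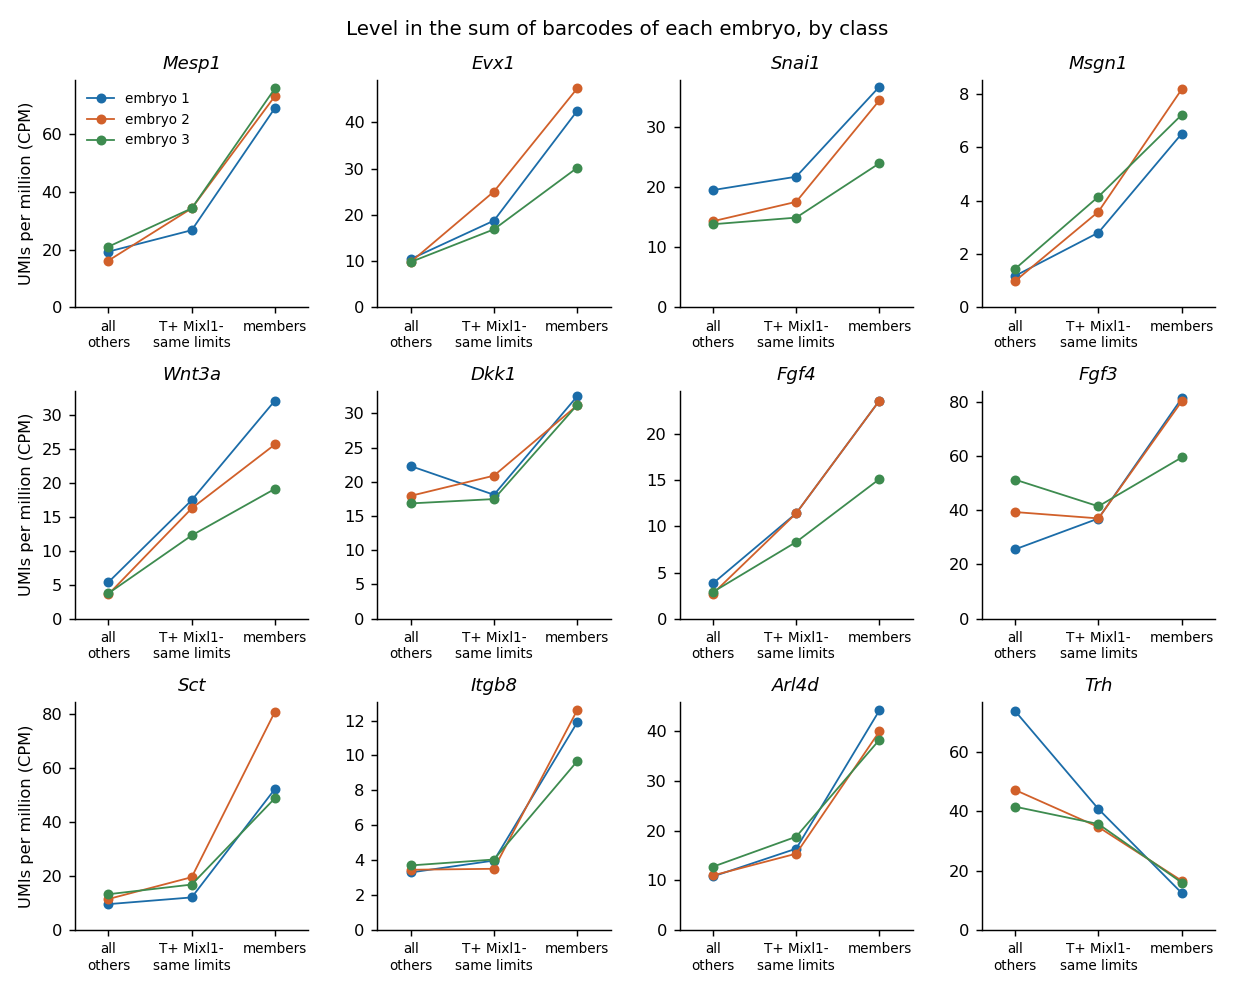
Levels (CPM, linear axes from 0) of 12 genes in the summed UMIs of all other barcodes, of T+Mixl1- barcodes under the same limits and of Mixl1+T+ cells (members), with 1 line per embryo. In each panel the 3 values of Mixl1+T+ cells lie above those of both comparators, except for Trh, where they lie below.

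Mesp1 had 69.1, 73.2 and 75.9 CPM against 26.7, 34.3 and 34.3 CPM (log2 fold change 1.21, standard error 0.12, adjusted p = 0.00907). At 5000 UMIs each, 28.4% ± 2.72 of Mixl1+T+ cells and 11.8% ± 1.19 of the T+Mixl1- barcodes had a Mesp1 UMI. In the plot of levels by class, Mesp1 of the Mixl1+T+ cells stands well above both comparators in each embryo. Msgn1, a basic helix-loop-helix factor of presomitic mesoderm, had 6.51, 8.18 and 7.22 CPM against 2.81, 3.59 and 4.16 CPM (1.05, standard error 0.20, adjusted p = 0.164, with the block 1.08e-06). Evx1 had 42.5, 47.3 and 30.2 CPM against 18.8, 25.0 and 16.9 CPM (0.99, standard error 0.19, adjusted p = 0.150, with the block 6.75e-14). Snai1, the repressor of Cdh1, had 36.8, 34.5 and 24.0 CPM against 21.8, 17.6 and 15.0 CPM (0.82, standard error 0.17, adjusted p = 0.202, with the block 1.12e-10). The classes overlapped for none of these 3 genes, which passed only with the block.

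Tbx3, a T-box factor found in lateral and extraembryonic mesoderm, had 32.4, 44.9 and 37.9 CPM against 16.5, 24.0 and 22.7 CPM (0.87, standard error 0.17, adjusted p = 0.180, with the block 1.25e-12), without overlap. Tbx6 had 62.6, 54.6 and 37.8 CPM against 42.6, 34.6 and 34.1 CPM (0.49, standard error 0.16, adjusted p = 0.623, with the block 4.15e-07), and its classes overlapped although each embryo was higher in Mixl1+T+ cells. Lhx1 (-0.17, standard error 0.12), Gsc (0.40, standard error 0.24), Mesp2 (-0.34, standard error 0.50) and Eomes (-0.56, standard error 0.33) passed neither way, and the last 3 stood under 3 CPM in every sum of both classes. Of the 10 factors, 1 was higher without the block and 6 with it, none was lower, and the median was 0.66 beside 0.00 over all genes tested.

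**Figure D2:**
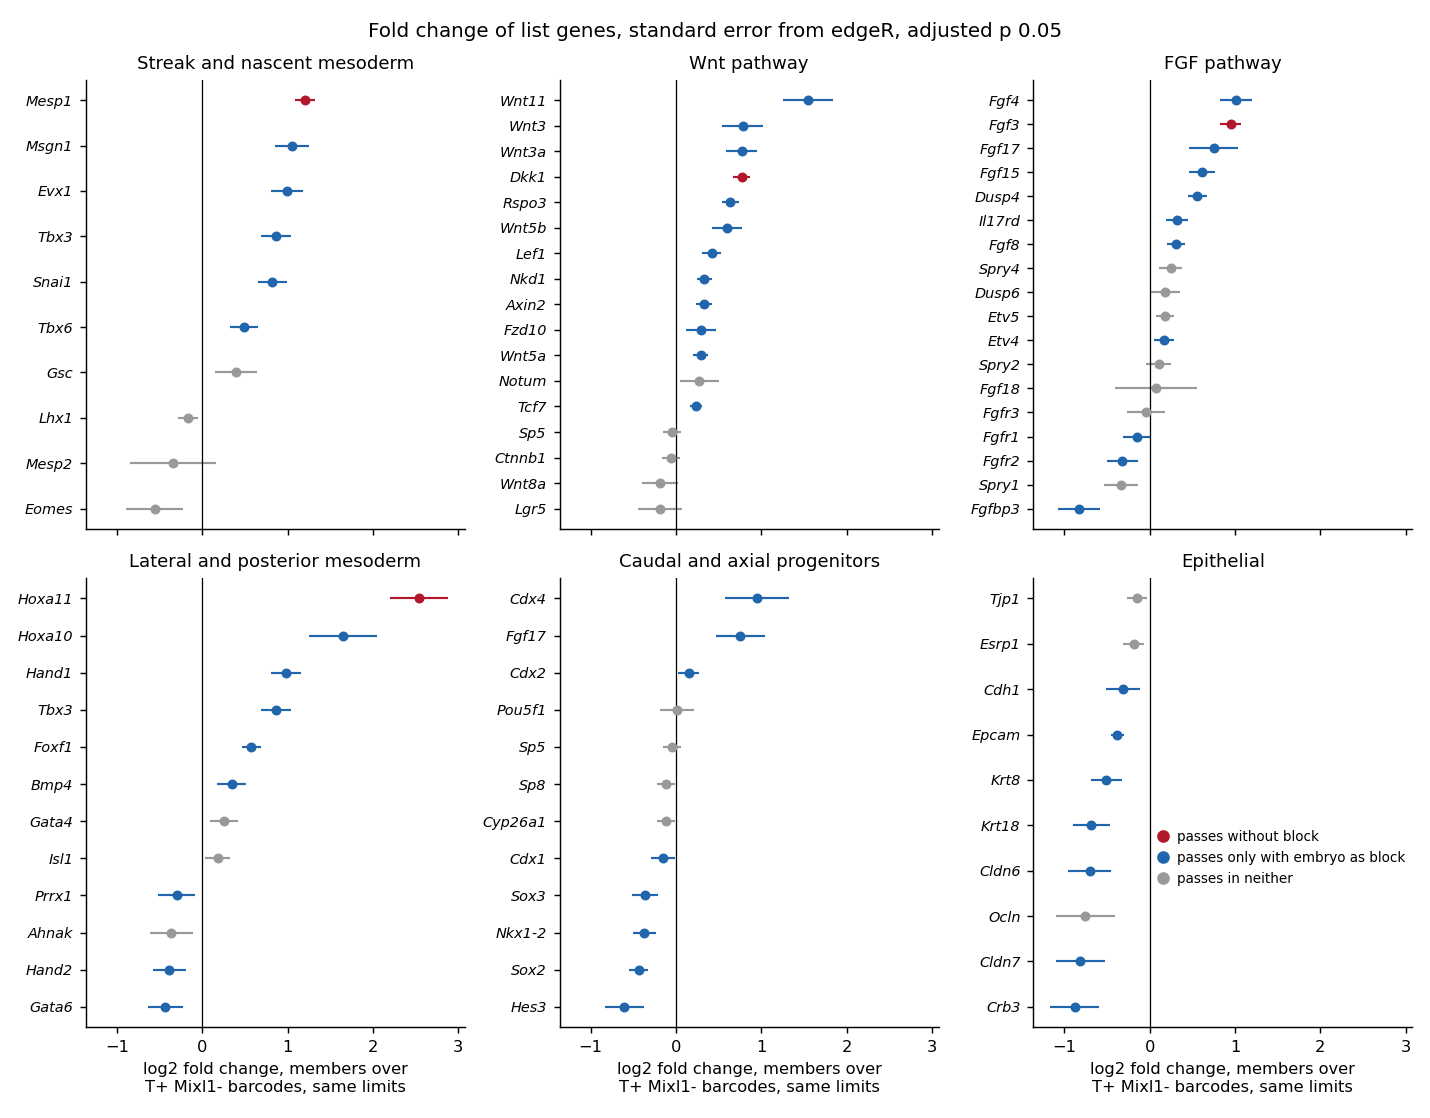
Log2 fold changes of Mixl1+T+ cells over T+Mixl1- barcodes under the same limits, for genes of 6 lists (3 embryos per class). Bars are standard errors derived from edgeR's fit without the block. Red genes pass an adjusted p of 0.05 without the block, blue genes only with the embryo as a block and grey genes in neither, and all 10 epithelial genes lie below 0.

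Among Wnt pathway genes, Dkk1, a secreted inhibitor of Wnt coreceptors, was higher, with 32.5, 31.2 and 31.2 CPM against 18.1, 20.9 and 17.5 CPM (log2 fold change 0.77, standard error 0.10, adjusted p = 0.0385). Wnt3a had 32.1, 25.6 and 19.1 CPM against 17.4, 16.2 and 12.2 CPM (0.77, standard error 0.19, adjusted p = 0.305, with the block 9.55e-10). Wnt11, a ligand tied to cell movement, had 3.06, 3.98 and 2.21 CPM against 0.784, 1.21 and 1.13 CPM (1.55, standard error 0.29, adjusted p = 0.162, with the block 1.31e-05). The classes overlapped for none of the 3. Wnt3, a ligand needed to form the streak, had 5.78, 3.32 and 4.19 CPM against 2.58, 2.24 and 3.27 CPM (0.78, standard error 0.24, adjusted p = 0.543, with the block 0.00152). Rspo3, a secreted enhancer of Wnt signalling, had 374, 316 and 279 CPM against 225, 202 and 202 CPM (0.64, standard error 0.09, adjusted p = 0.0664, with the block 1.35e-17), again without overlap.

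Lef1, a transcription factor of the pathway, had 202, 182 and 156 CPM against 154, 137 and 117 CPM (0.42, standard error 0.11, adjusted p = 0.377, with the block 3.33e-13). The feedback gene Axin2 had 83.4, 73.8 and 76.1 CPM against 71.0, 55.1 and 62.1 CPM (0.33, standard error 0.10, adjusted p = 0.502, with the block 2.17e-06). Sp5, a target of Wnt signalling, had 119, 115 and 92.2 CPM against 115, 125 and 101 CPM (-0.05, standard error 0.11). Its classes overlapped, as did those of Ctnnb1, which encodes beta-catenin (-0.06, standard error 0.10). Wnt8a (-0.19, standard error 0.21) and the receptor gene Lgr5 (-0.19, standard error 0.26) had the lowest fold changes of the list. Of 17 genes, 1 was higher without the block and 12 with it, none was lower, and the median was 0.33.

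Among FGF pathway genes, Fgf3, a ligand of the posterior embryo, was higher, with 81.4, 80.3 and 59.5 CPM against 37.0, 37.0 and 41.5 CPM (log2 fold change 0.95, standard error 0.12, adjusted p = 0.0385). Fgf4, which follows Fgf3 on chromosome 7 (from 144838083 to 144844436 for Fgf3, from 144847367 to 144865243 for Fgf4), had 23.7, 23.7 and 15.1 CPM against 11.4, 11.4 and 8.31 CPM (1.01, standard error 0.18, adjusted p = 0.138, with the block 2.89e-11). Replicate 3 was again the lowest Mixl1+T+ value for both, without reaching the comparator. Fgf8, needed for cells to move away from the streak, had 87.5, 97.5 and 80.7 CPM against 64.0, 80.4 and 71.3 CPM (0.31, standard error 0.11, adjusted p = 0.660, with the block 3.98e-07). Dusp4, a feedback phosphatase, had 55.4, 55.9 and 45.7 CPM against 34.3, 40.8 and 32.6 CPM (0.56, standard error 0.11, adjusted p = 0.180, with the block 2.69e-10). Both were higher in each embryo without overlap.

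The FGF receptor gene Fgfr1 had 153, 97.3 and 125 CPM against 165, 115 and 144 CPM (-0.15, standard error 0.16, adjusted p with the block 0.00152). Fgfbp3, which encodes an FGF-binding protein, had 10.8, 15.7 and 13.2 CPM against 20.6, 31.8 and 16.8 CPM (-0.82, standard error 0.25, adjusted p = 0.535, with the block 2.53e-07). The former overlapped between the classes and the latter did not. The feedback inhibitor Spry1 had the next lowest fold change of the list (-0.34, standard error 0.20, adjusted p with the block 0.0532). Of 18 genes, 1 was higher without the block, while 8 were higher and 3 lower with it, and the median was 0.18.

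Nodal pathway genes were scarce. Of 11, only 5 were abundant enough to be tested and none passed without the block. Cfc1, the coreceptor Cryptic, had 28.0, 37.4 and 38.9 CPM against 17.2, 22.6 and 28.0 CPM (0.62, standard error 0.20, adjusted p = 0.606, with the block 6.44e-09). Cer1, a secreted antagonist, had 3.06, 2.65 and 5.36 CPM against 6.93, 5.08 and 5.86 CPM (-0.66, standard error 0.25, adjusted p = 0.793, with the block 0.00339). These were the only genes of the list past the test with the block, 1 in each direction. The receptor gene Acvr2b passed neither way (-0.01, standard error 0.07).

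None of 17 BMP pathway genes passed without the block, and 6 were higher and 1 lower with it (median 0.01). Msx2, a homeodomain target of BMP, had 32.9, 35.8 and 24.1 CPM against 18.6, 19.6 and 13.4 CPM (0.86, standard error 0.17, adjusted p = 0.180, with the block 1.35e-11). The inhibitory Smad gene Smad7 had 26.3, 28.5 and 28.9 CPM against 18.5, 18.4 and 22.5 CPM (0.50, standard error 0.12, adjusted p = 0.281, with the block 3.52e-06). Neither overlapped between the classes. The ligand gene Bmp4 had 31.7, 45.1 and 38.1 CPM against 23.9, 33.8 and 32.8 CPM (0.34, standard error 0.17, adjusted p with the block 6.54e-05), with overlap. Of the target genes, Id1 passed with the block (0.42, standard error 0.10, adjusted p with the block 1.65e-13) and Id3 passed neither way (0.01, standard error 0.10). The antagonist gene Nog (-0.50, standard error 0.40) and the ligand gene Bmp2 (-0.29, standard error 0.19) had the lowest fold changes and passed neither way.

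Of 12 Notch and presomitic genes none passed without the block, 6 were higher with it and none lower (median 0.32). Besides Msgn1 and Rspo3, whose fold changes led the list, Hes7 had 94.99, 83.8 and 64.8 CPM against 62.5, 65.1 and 50.9 CPM (0.46, standard error 0.14, adjusted p = 0.502, with the block 3.14e-10). The Notch ligand gene Dll1 had 64.7, 47.5 and 33.7 CPM against 48.5, 33.2 and 32.5 CPM (0.38, standard error 0.22, adjusted p with the block 4.61e-05). Both overlapped between the classes. The Notch target Hes5 (-0.34, standard error 0.19) and the somite boundary gene Ripply2 (-0.35, standard error 0.56) had the lowest fold changes.

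Genes of lateral and posterior mesoderm separated into higher and lower ones. Hoxa11 had 1.99, 1.99 and 2.91 CPM against 0.278, 0.466 and 0.472 CPM (log2 fold change 2.54, standard error 0.34, adjusted p = 0.0437). It rests on few UMIs and passed the filter on low counts only through the Mixl1+T+ sums, so nothing is read from its call. Hoxa10 had 4.19, 7.96 and 7.22 CPM against 1.14, 1.82 and 3.05 CPM (1.65, standard error 0.40, adjusted p = 0.305, with the block 1.24e-08). Hand1, a factor of lateral and extraembryonic mesoderm, had 128, 141 and 147 CPM against 51.4, 76.9 and 85.2 CPM (0.98, standard error 0.18, adjusted p = 0.137, with the block 1.87e-16). The classes overlapped for none of these 3. At 5000 UMIs each, 37.9% ± 5.22 of Mixl1+T+ cells and 17.6% ± 3.43 of T+Mixl1- barcodes had a Hand1 UMI, beside 20.0% ± 4.32 of all barcodes outside the rule. Foxf1, a forkhead factor of the same tissue, had 32.7, 35.8 and 33.4 CPM against 20.8, 26.2 and 22.0 CPM (0.58, standard error 0.11, adjusted p = 0.171, with the block 9.14e-09).

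Hand2, a relative of Hand1, had 8.97, 9.29 and 11.4 CPM against 10.2, 13.3 and 15.7 CPM (-0.39, standard error 0.19, adjusted p with the block 0.0353). Gata6, a zinc finger factor of heart and endoderm, had 17.5, 19.2 and 29.6 CPM against 26.4, 28.7 and 35.4 CPM (-0.43, standard error 0.21, adjusted p with the block 3.88e-05). Both were lower in each embryo, with overlap between the classes. Of the 12 genes 1, Hoxa11, was higher without the block. With it 6 were higher, Hoxa11 among them, and 3 lower (median 0.30).

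Hox genes pattern the body axis in the order of their paralogue numbers. Of 18 tested in the list none passed without the block, and 15 were higher with it (median 0.38). Hoxd9 had 24.5, 40.5 and 33.7 CPM against 6.75, 12.6 and 10.7 CPM (1.72, standard error 0.26, adjusted p = 0.0664, with the block 1.27e-18), without overlap. Hoxa13 had 0.598, 1.11 and 1.17 CPM against 0.202, 0.606 and 0.346 CPM (1.30, standard error 0.51, adjusted p with the block 0.0283), so its fold change rests on few UMIs. It is among the 15 genes but passed the filter on low counts through the Mixl1+T+ sums, so nothing is read from its call. Hoxb4 lay nearer to 0 (0.15, standard error 0.08) and passed neither way. Against all other barcodes the log2 fold changes were 1.37 for Hoxd9, 1.70 for Hoxb9 and -0.65, standard error 0.41 for Hoxa13.

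**Figure D3:**
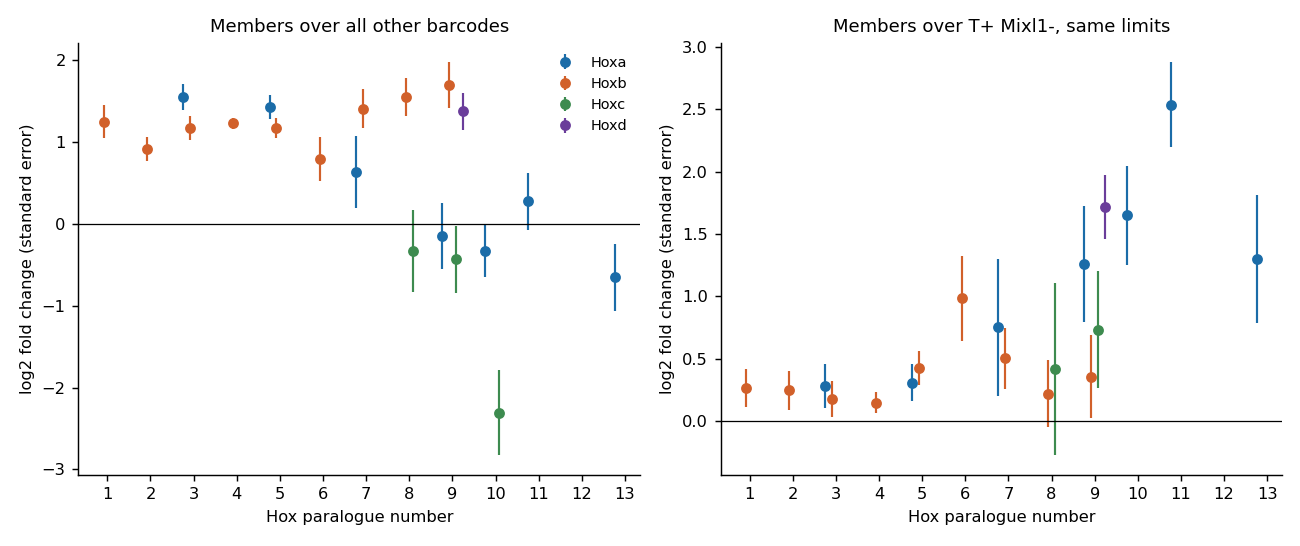
Log2 fold changes of Hox genes by paralogue number, with the cluster as colour and 3 embryos per class. The comparators are all other barcodes (left) and T+Mixl1- barcodes under the same limits (right). Bars are standard errors derived from edgeR's fit without the block. On the right Hoxa9, Hoxd9, Hoxa10, Hoxa11 and Hoxa13 lie above 1 and the genes shown with paralogue numbers 1 to 5 under 0.5. Hoxa11 and Hoxa13 rest on few UMIs and passed the filter on low counts through the Mixl1+T+ sums.

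Caudal and axial progenitor genes did not move one way. Cdx4 had 94.8, 212 and 99.97 CPM against 53.3, 109 and 48.4 CPM (0.95, standard error 0.38, adjusted p = 0.816, with the block 2.13e-19), and replicate 2 was far above the others in both classes. Sox2, which neuromesodermal progenitors express together with T, had 45.7, 41.6 and 55.8 CPM against 63.4, 66.9 and 66.4 CPM (-0.44, standard error 0.11, adjusted p = 0.346, with the block 2.71e-07). Hes3, a Hes family repressor gene, had 7.71, 13.7 and 11.7 CPM against 14.3, 20.2 and 14.3 CPM (-0.61, standard error 0.23, adjusted p = 0.744, with the block 8.64e-05). The values of Sox2 and Hes3 lay lower in each embryo, without overlap. Fgf17 differed by a log2 fold change of 0.75 and the homeodomain gene Nkx1-2 by -0.37, both past the test with the block alone, while Pou5f1, the pluripotency gene, passed neither way (0.01, standard error 0.20). None of the 12 genes passed without the block, 3 were higher and 5 lower with it, and the median was -0.11.

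The values of all 10 epithelial genes lay lower in the Mixl1+T+ cells of each embryo. None passed without the block and 7 were lower with it (median -0.60). Crb3, a polarity gene, had 3.99, 2.87 and 6.29 CPM against 6.17, 10.0 and 9.10 CPM (-0.88, standard error 0.28, adjusted p = 0.596, with the block 0.000511). Cldn7, a tight junction gene, had 12.8, 23.9 and 23.8 CPM against 23.7, 39.5 and 41.1 CPM (-0.81, standard error 0.29, adjusted p = 0.684, with the block 9.46e-11). The classes of both overlapped through differences between embryos. Epcam, an adhesion molecule of epithelia, had 108, 112 and 107 CPM against 139.7, 135 and 154 CPM (-0.38, standard error 0.08, adjusted p = 0.180, with the block 3.92e-10), without overlap. Cdh1, which encodes E-cadherin, had 36.6, 20.8 and 36.9 CPM against 47.8, 32.9 and 40.1 CPM (-0.31, standard error 0.20, adjusted p with the block 0.000583). Tjp1 (-0.15, standard error 0.12) and Esrp1 (-0.19, standard error 0.12) were nearest to 0.

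Of 12 mesenchymal genes none passed without the block, 4 were higher and 1, Twist1, was lower with it (median 0.12). Besides Snai1, Cdh2, which encodes N-cadherin, led the list, with 73.0, 64.3 and 57.2 CPM against 53.6, 57.5 and 41.1 CPM (0.37, standard error 0.13, adjusted p with the block 1.02e-07). Fn1, which encodes fibronectin, had 231, 181 and 202 CPM against 174, 150.0 and 165 CPM (0.34, standard error 0.09, adjusted p with the block 2.88e-11). Twist1 (-0.33, standard error 0.16) and Col1a1 (-0.19, standard error 0.29) had the lowest fold changes.

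Most of the other genes past the test without the block belong to no list. Sct (ENSMUSG00000038580, chromosome 7 from 141278330 to 141279133) had 52.1, 80.7 and 48.7 CPM against 11.96, 19.4 and 16.7 CPM (log2 fold change 1.92, standard error 0.23, adjusted p = 0.0367). Itgb8 (ENSMUSG00000025321, chromosome 12 from 119158022 to 119238802), an integrin subunit that activates TGF-beta, had 11.9, 12.6 and 9.67 CPM against 3.97, 3.50 and 4.03 CPM (1.57, standard error 0.14, adjusted p = 0.00689). Arl4d (ENSMUSG00000034936, chromosome 11 from 101665541 to 101667832), a small GTPase of the ARF family, had 44.3, 40.0 and 38.3 CPM against 16.4, 15.3 and 18.8 CPM (1.30, standard error 0.11, adjusted p = 0.00522). In the plot of levels by class, the Mixl1+T+ values of all 3 stand apart from both comparators. Smc6 (ENSMUSG00000020608, chromosome 12 from 11265886 to 11319785), a subunit of the SMC5/6 complex, had 643, 599 and 558 CPM against 379.9, 375 and 362 CPM (0.70, standard error 0.06, adjusted p = 0.00681). Trh (ENSMUSG00000005892, chromosome 6 from 92242061 to 92244650), which encodes thyrotropin-releasing hormone and was on the list of definitive endoderm genes, had 12.4, 16.6 and 16.0 CPM against 40.9, 34.7 and 35.8 CPM (-1.32, standard error 0.13, adjusted p = 0.00907). Smc6 had the smallest standard error of these genes, and Trh was low in each embryo.

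Fam212a had 25.8, 24.5 and 24.5 CPM against 16.5, 16.5 and 16.6 CPM (log2 fold change 0.61, standard error 0.08, adjusted p = 0.0437). Pde4a, a cyclic AMP phosphodiesterase, had 9.17, 8.18 and 8.27 CPM against 3.56, 3.68 and 4.34 CPM (1.17, standard error 0.15, adjusted p = 0.0385). Both were tight between embryos. Lgals3, which encodes galectin-3, had 2.92, 2.65 and 2.56 CPM against 0.834, 0.560 and 0.819 CPM (1.87, standard error 0.25, adjusted p = 0.0453). Gpx2, a glutathione peroxidase of epithelia, had 0.665, 0.663 and 1.51 CPM against 4.60, 7.83 and 6.30 CPM (-2.70, standard error 0.36, adjusted p = 0.0437). Pde4a, Lgals3, Gpx2 and the Hoxa11 gene named above stood under 10 CPM in both classes, so they rest on fewer UMIs.

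With the embryo as a block, rankings were again made among genes with at least 10 CPM in the higher class. The 12 largest increases were those of Sct, Hoxd9, Itgb8, Arl4d, Mesp1, Efna1, Evx1os, Igfbp3, Osr1, Fgf4, Evx1 and Hoxb6. Efna1, an ephrin ligand, had 36.2, 28.5 and 21.8 CPM against 15.2, 13.5 and 12.2 CPM (1.10, standard error 0.16, adjusted p = 0.0664, with the block 4.59e-13). Osr1, a factor of intermediate and lateral mesoderm, had 16.5, 36.0 and 19.3 CPM against 9.68, 14.6 and 10.1 CPM (1.02, standard error 0.29, adjusted p = 0.449, with the block 3.39e-10). Neither overlapped between the classes. Igfbp3 (1.05, standard error 0.28) and Hoxb6 (0.98, standard error 0.34) overlapped between embryos. The 6 largest decreases were those of Trh, Trap1a (-1.04, standard error 0.61), Fgfbp3, Cldn7, Epha5 (-0.80, standard error 0.38) and Sema3e (-0.79, standard error 0.26).

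Of the 11 genes higher without the block, 10 had promoter windows in RefSeq, 12 windows in all. The T-box letters were found in 1 of them, that of Mesp1 (8.33%, beside 1.28% of all windows). TCF/LEF letters were found in 5, those of Dkk1, Fgf3, Hoxa11, Mesp1 and Pde4a (41.7%, beside 8.65%), and the homeodomain dimer letters in none. The 41.7% includes Hoxa11, which passed the filter on low counts only through the Mixl1+T+ sums, so nothing is read from that share. Of the 12 largest increases with the block at 10 CPM or more, 10 had 11 windows, of which 2 (Hoxd9 and Mesp1) held the T-box letters and 1 (Mesp1) TCF/LEF letters. With so few genes these shares are a description.

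Under the same limits all 10 lists of markers of other cell types had medians below 0, and of their genes Trh alone passed without the block. With the block, 6 of 8 neuroectoderm genes were lower (median -0.38), 4 of 5 surface ectoderm genes (median -0.53), 4 of 7 paraxial mesoderm genes (median -0.30), 4 of 8 extraembryonic endoderm genes (median -0.44) and 4 of 5 tested definitive endoderm genes (median -0.73). Of organizer and notochord genes 2 of 9 tested were lower with the block (median -0.43), of erythroid genes 1 of 7 (median -0.31) and of germ cell genes 1 of 5 tested (median -0.02). No cardiac gene (median -0.16) and none of 4 tested endothelial genes (median -0.32) passed either way. No list had a higher gene among these cell types.

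Summed extraembryonic endoderm markers, mostly Apoe, stood at 163, 644 and 417 CPM against 233, 860.1 and 509.9 CPM. Summed definitive endoderm markers, mostly Spink1, stood at 84.3, 180.2 and 154 CPM against 160.5, 307 and 255 CPM. Each embryo was lower in Mixl1+T+ cells for both sums, and their part in the lower genes was not tested. Of 18 cell cycle genes, Ccnd2 and Cdkn1a were higher with the block and none passed without it (median 0.02). Their summed level was 3701, 3389 and 3319.7 CPM against 3591, 3264 and 3341 CPM, with overlap. Of 9 tested dissociation stress genes none passed without the block and 2 were lower with it (median -0.10).

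Cells with more Mixl1 UMIs also had more of several mesoderm genes. This comparison within the Mixl1+T+ cells was chosen after values had been seen and uses the Mixl1 counts of the rule, so it has no test. Cells with 1 Mixl1 UMI had medians of 33155, 17147.5 and 23487 UMIs in replicates 1, 2 and 3, cells with 2 had 30137, 13460 and 25914, and cells with 3 or more had 34267.5, 14682 and 27803. The order of these depths differed between embryos. Mesp1 stood at 48.0, 49.5 and 58.8 CPM in replicates 1, 2 and 3 with 1 Mixl1 UMI, at 91.2, 122 and 104 CPM with 2 and at 104, 149.9 and 102 CPM with 3 or more. Hand1 stood at 84.9, 110.2 and 117 CPM, then at 166, 207 and 183 CPM and at 208, 241 and 209 CPM. For both genes every embryo was lowest in cells with 1 Mixl1 UMI.

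The mean over embryos of Hoxd9 was 23.7, 39.1 and 63.1 CPM in cells with 1, 2 and 3 or more Mixl1 UMIs. That of Evx1 was 31.3, 48.9 and 66.1 CPM and that of Cdx4 was 109, 183 and 204 CPM. Snai1, with means of 26.9, 39.7 and 42.6 CPM, hardly differed in replicate 3. Sox2 went the other way, with means of 52.3, 43.2 and 34.5 CPM, and so did Hes7, with 90.7, 69.3 and 61.0 CPM. Tbx6 showed no order, with means of 52.2, 54.2 and 49.8 CPM.

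**Figure D4:**
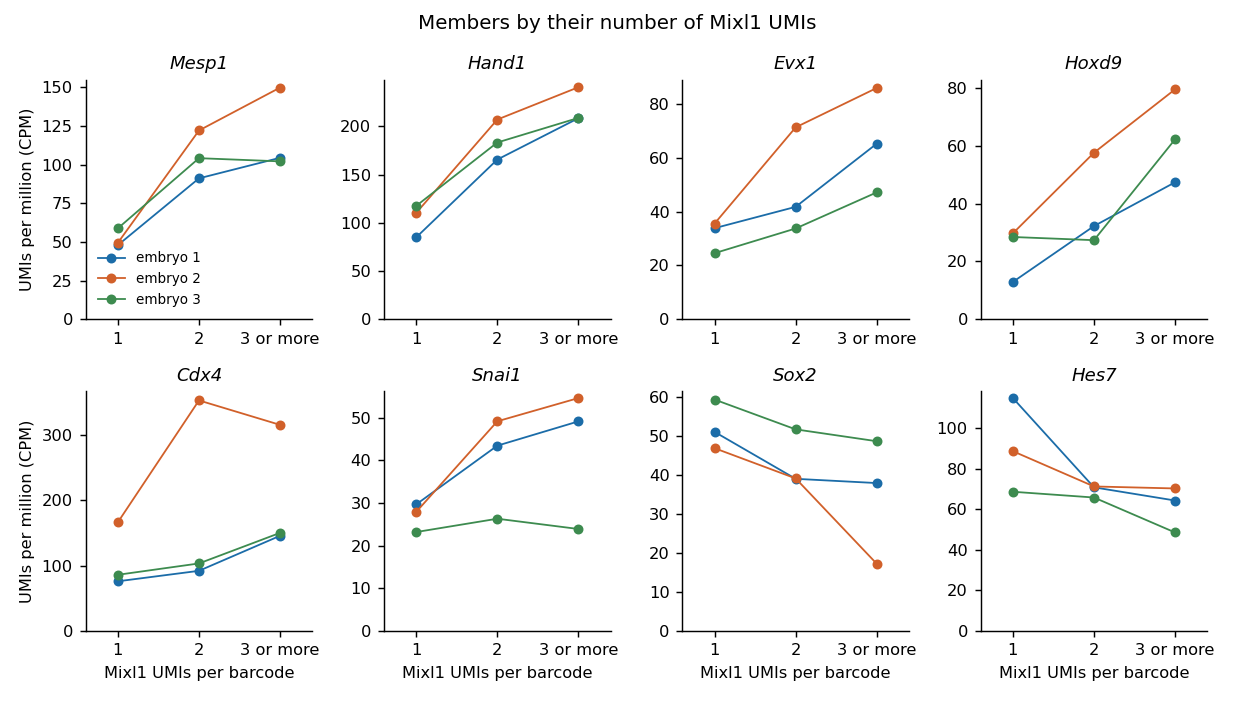
Levels (CPM, linear axes from 0) of 8 genes in Mixl1+T+ cells (members) with 1, 2, or 3 or more Mixl1 UMIs, with 1 line per embryo. Mesp1, Hand1 and Evx1 are lowest at 1 UMI in every embryo, and Sox2 and Hes7 are highest there.

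Sox2 and Hand1 divided the cells further, again as a description chosen after values had been seen. Sox2 marks epiblast and neural progenitors and Hand1 marks lateral and extraembryonic mesoderm. Sox2 without Hand1 was found in 181 cells, Hand1 without Sox2 in 331, both in 234 and neither in 152. A Hand1 UMI was also found in 7.49% of the erythroid and 11.8% of the extraembryonic endoderm barcodes, and a Sox2 UMI in 3.67% and 10.2% of them. The part of free RNA in this division was not tested. Cells with both had medians of 56407, 34681 and 38191 UMIs in replicates 1, 2 and 3, against 39581, 24711 and 27486.5 with Sox2 alone and 27238.5, 13082 and 16797 with Hand1 alone, an order that each embryo shared. Of the cells with both, 17.9% were among the top 6% of doublet scores, against 6.08% with Sox2 alone and 5.14% with Hand1 alone. The part of depth and doublets in the cells with both was not tested.

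At 5000 UMIs each, Hand1 alone was found in 29.4%, 36.6% and 36.8% of Mixl1+T+ cells in replicates 1, 2 and 3, and in 11.8%, 16.1% and 18.1% of T+Mixl1- barcodes. Sox2 alone was found in 11.4%, 7.04% and 12.4% against 20.1%, 20.1% and 18.7%. The embryos of the classes overlapped in neither share. Both genes were found in 3.63% ± 1.80 against 2.25% ± 0.524 (SD, n = 3), and neither in 51.8% ± 5.91 against 62.8% ± 2.80.

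With the kinds called on the 5000 thinned UMIs, other genes were measured in the UMIs left over. Mesp1 stood at 128, 123 and 116 CPM in Mixl1+T+ cells with Hand1 alone and at 36.2, 22.6 and 27.4 CPM in those with Sox2 alone. Foxf1 stood at 71.8, 70.6 and 68.7 CPM with Hand1 alone and at 10.6, 12.9 and 16.8 CPM with Sox2 alone. Bmp4 stood at 64.7, 75.5 and 62.2 CPM and at 15.0, 29.0 and 22.1 CPM. Each embryo had more of these 3 mesoderm genes in the cells with Hand1. The means were 63.9 and 13.9 CPM for Hoxd9 and 71.9 and 17.5 CPM for Tbx3, in the same order.

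The order was opposite for Epcam, an epithelial gene, with means of 68.5 CPM with Hand1 alone and 157 CPM with Sox2 alone. It was also opposite for Nkx1-2 (36.7 and 79.7 CPM) and for Otx2, a factor of the anterior epiblast (12.2 and 53.8 CPM). Epithelial genes did not all share this order, since the keratin genes Krt8 (199 and 107 CPM) and Krt18 (199 and 122 CPM) were higher with Hand1 alone in each embryo. Hes7 stood at 123, 102 and 72.6 CPM in cells with neither gene, at 85.8, 71.0 and 61.9 CPM with Sox2 alone and at 48.5, 46.7 and 47.7 CPM with Hand1 alone. Each embryo had this order for Hes7.

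**Figure D5:**
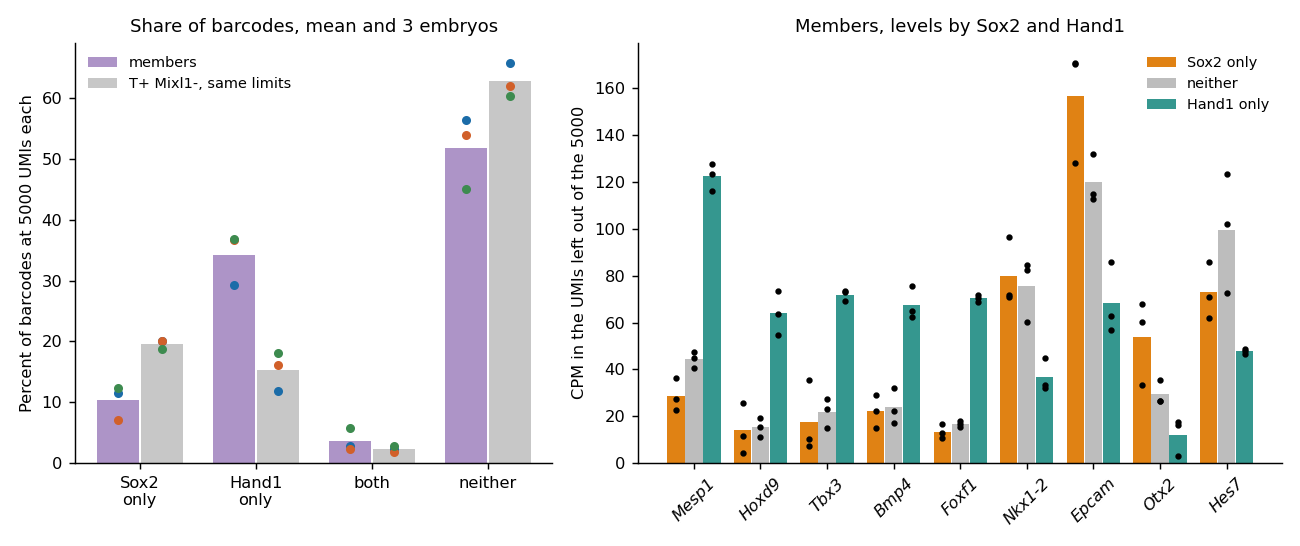
Left, percent of barcodes with Sox2 only, Hand1 only, both or neither at 5000 UMIs each, in Mixl1+T+ cells (members) and T+Mixl1- barcodes under the same limits (bars, means of 3 embryos, with embryo 1 as blue, 2 as orange and 3 as green points). Right, CPM of 9 genes in the remaining UMIs of Mixl1+T+ cells with Sox2 only, neither or Hand1 only (bars, means, with embryos as points), where Mesp1, Hoxd9, Tbx3, Bmp4 and Foxf1 are highest with Hand1 only among the 3 kinds drawn.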

How the data were processed

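Single-cell RNA was sequenced (10x Genomics 3' v3) from 3 wild-type embryos, 1 library each. The deposited values are raw UMI counts per feature and barcode, made by the authors with Cell Ranger 3.1.0 on mm10, per the submitters' processing notes. Barcodes with 1500 to 8500 genes (7500 in replicate 2) and at most 10% mitochondrial UMIs were kept. Doublets were not removed. Coordinates are those of GENCODE on GRCm38.

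UMIs were summed per embryo and class and tested with edgeR 4.0.16 (quasi-likelihood, TMM, filterByExpr) in R 4.3.3. Benjamini-Hochberg adjustment was over all genes kept by the filter. Genes of the rule that were kept stayed in the fit and the adjustment but give no result. The embryos are separate animals, so p-values measure the spread between embryos. Sums of the same embryo deviated together (r from 0.268 to 0.437 against all others, from 0.377 to 0.588 against T-positive Mixl1-negative barcodes and from 0.459 to 0.678 under the same limits, across genes), so the embryo as a block was fitted beside it. The fit without the block was first tested on simulated data, and the block was not. Of genes changed by a log2 of 1, it recovered 58.8% against all others, 76.8% against T-positive Mixl1-negative barcodes and 73.5% under the same limits. In that order, 5.48%, 6.15% and 8.43% of its calls were false.

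Cells, lists and comparators were chosen with earlier results of these data known. Named by rule were all streak factors, the 12 largest increases and 6 largest decreases past an adjusted p of 0.05 with 1 sign in all embryos and at least 10 CPM, and the 2 largest and 2 smallest fold changes of each list. Some genes of this choice are not reported here. For lists of other cell types, cell cycle and stress, counts, medians and summed levels are given in place of genes. The other genes named, by role or past a test under 10 CPM, were chosen after their values were seen. Alternatives were RLE size factors, DESeq2 1.42.0, no filter on low counts, the block, leaving out each embryo, 5000 UMIs per barcode after or before the rule, at least 2 UMIs of Mixl1 and T, and leaving out top doublet scores or low mitochondrial shares.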

Additional observations from a re-analysis of the deposited data

Results flagged for a closer look

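The matrices hold a feature for EGFP, whose sequence the authors added to the reference used for alignment. No comparison used this feature, and it had UMIs although the embryos are labelled wild type. In replicate 1 it had 28 UMIs in 20 barcodes that passed quality control, at most 3 in any barcode. In replicate 3 it had 31 UMIs in 21 barcodes, at most 6 in any. Both sums are above the 3 counts that a count of 0 allows, which is why they are listed, while replicate 2 had 0 UMIs. None of these UMIs was in a Mixl1+T+ cell.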

How the results depend on the processing

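The share of Mixl1+T+ cells, a mean of 4.23%, was 1.04% with the rule applied at 5000 UMIs per barcode and 1.51% with at least 2 UMIs of Mixl1 and T. Against all other barcodes (421 higher, 842 lower), DESeq2 called 634 higher, the embryo as a block 1827 and 2451, 5000 UMIs after the rule 468 lower, and the rule at 5000 UMIs 133 and 160. Against T-positive Mixl1-negative barcodes (136 and 432), no filter called 673 lower, the block 1466 and 1563, 5000 UMIs after the rule 241 lower, and the rule at 5000 UMIs 32 and 85. Under the same limits (11 and 2), DESeq2 called 68 and 16, no filter 57 and 16, the block 448 and 397, 5000 UMIs after the rule 17 and 5, at least 2 UMIs of Mixl1 and T 61 and 11, no top doublet scores 18 higher, the rule at 5000 UMIs 10 lower and no low mitochondrial shares 1 lower. Leaving out an embryo gave 71 to 283 higher and 61 to 679 lower against all others (lowest without replicate 3), 21 to 31 and 93 to 122 against T-positive Mixl1-negative barcodes, and 0 to 2 and 0 to 0 under the same limits. Signs reversed only for fold changes that passed no test without the block. Against all others these were Tbx3 (0.000989 with RLE size factors, 0.00776 with DESeq2, 0.0221 with the block, -0.0302 to 0.0607 with an embryo left out, 0.0114 at 5000 UMIs after the rule, 0.14 with the rule at 5000 UMIs, 0.30 with at least 2 UMIs, 0.0255 without top doublet scores), Bmp4 (-0.16 to 0.0940 with an embryo left out, 0.14 and 0.42 at 5000 UMIs after and before the rule, 0.24 with at least 2 UMIs), Mesp2 (-0.29 to 0.52 with an embryo left out), Fgfr1 (-0.15 with the rule at 5000 UMIs) and Fam212a (-0.0482 to 0.38 with an embryo left out). Under the same limits they were Acvr2b (-0.0360 to 0.00335 with an embryo left out, 0.14 and 0.0906 at 5000 UMIs after and before the rule, 0.0247 without top doublet scores), Nog (-0.93 to 0.13) and Ripply2 (-0.93 to 0.16) with an embryo left out, Hes5 (0.0375) and Hand2 (0.17) with the rule at 5000 UMIs, and Esrp1 (0.0632) and Col1a1 (0.49) at 5000 UMIs after the rule. Over the fold changes of named genes, 1431 alternatives kept direction and side of the threshold, 144 moved past it, 93 fell short of it and 25 reversed. The causes were not tested. With 3 embryos, leaving 1 out also leaves fewer samples, and genes of a few CPM rest on few UMIs.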
